A study of Rattus norvegicus and synthetic construct with 4 samples.

Results

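The elements described here are 80 human islet sequences that gave strong and repeatable reporter output in a rat beta cell line without belonging to the 12 strongest of the library. They were chosen by a rule on the measured counts. For each element the RNA and plasmid DNA counts of its barcodes were added up, and the RNA/DNA ratio in each RNA library was divided by its median over all 3378 elements in the count table, which was 0.106, 0.103 and 0.108 in RNA replicates 1, 2 and 3. The result is called the scaled ratio, and a value of 1 is the middle of the library. Elements with at least 8 counted barcodes and a scaled ratio over 4 in all 3 RNA libraries were kept. Of the 1463 elements with at least 8 barcodes, 92 (6.29%) met this rule, and the 12 with the highest mean were left out. Because the rule used all 3 RNA libraries, the level of these elements and their standing above the library are descriptions and not findings.

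The study tested elements of 198 bp, defined by CAGE in human pancreatic islets, by STARR-seq in the rat insulinoma line INS1 832/13. A total of 7188 elements was designed. Plasmids carrying an element and a random barcode of 16 bases were electroporated (10 ug for each of 3 biological replicates), and RNA was collected after 24 h. The groups are 3 RNA libraries, all from this line carrying the same plasmid library, and 1 library of the input plasmid DNA. No treatment, second line or other condition is named in the labels. The line is a single clone of a rat tumour, and the sequences are human. The libraries hold reporter transcripts and no other RNA of the cells, so beta cell markers could not be checked in them.

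CAGE captures the capped 5' ends of transcripts and so marks where transcription begins, at promoters of genes and at enhancers, many of which are themselves transcribed. In STARR-seq a candidate sequence sits within the transcribed part of the reporter, and a sequence that recruits the transcription machinery raises the amount of its own RNA. INS1 832/13 cells secrete insulin in response to glucose and are widely used as a stand-in for the beta cell. Each barcode marks a separately made plasmid of an element, so the barcodes of an element are repeated readings of the same sequence in the same cells. A human genome was not used here, and the elements are given by their hg19 coordinates, without gene names or bases.

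Depth was 1079728 counts for the DNA library and 211117, 197554 and 218571 for the RNA libraries. The 80 elements held 48956 DNA counts on 1671 barcodes, 4.53% of the DNA library. They held 17.0% ± 0.365 (SD, n = 3) of the RNA counts. Per element there were 160 to 2541 DNA counts and 79 to 1455 RNA counts in a library. PCR reads without a stated molecular identifier are not independent molecules, so counting error is the least error these values carry.

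The sequences that identify these plasmids are their barcodes. The barcodes with the most and the fewest RNA counts are shown for the 5 strongest of the 80 elements and for the 3 in which a single barcode held the largest share of the RNA, because plasmids of the same element differed so widely. They are printed in lower case, 5' to 3' as deposited, and no base is capitalised because a random barcode has no part that matters more than another.
chr20:5093697-5093894, most RNA: atcttgtcactttaac
chr20:5093697-5093894, least RNA: tcttaatctaaccagc
chr11:118938423-118938620, most RNA: catctacgtaagcaga
chr11:118938423-118938620, least RNA: tctatacaatttgtcg
chr3:39448118-39448315, most RNA: attctagtgtgaaatc
chr3:39448118-39448315, least RNA: ggatatttggtttttc
chr17:27046928-27047125, most RNA: cttgcaagcttaaagc
chr17:27046928-27047125, least RNA: aaggctctttacattt
chr17:43138593-43138790, most RNA: gtattaagatcaggca
chr17:43138593-43138790, least RNA: cacatacgttagtggg
chr16:10837604-10837801, most RNA: cagtataccggatatt
chr16:10837604-10837801, least RNA: cttttagattctttac
chr1:70671303-70671500, most RNA: tcttaaaaagttgtgt
chr1:70671303-70671500, least RNA: gttaggttcgaagata
chr3:139062778-139062975, most RNA: tcttagtattataaac
chr3:139062778-139062975, least RNA: tatgaaattgctctgc

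The plasmid of chr20:5093697-5093894 with barcode atcttgtcactttaac had 34 DNA counts and 106, 108 and 86 RNA counts in replicates 1, 2 and 3. The plasmid with tcttaatctaaccagc, which carries the same element, had 28 DNA counts and 0, 1 and 4 RNA counts. These barcodes were picked by their RNA summed over the same libraries, so a gap in each is largely fixed by that choice. In chr11:118938423-118938620 the barcode catctacgtaagcaga had 62 DNA counts and 76, 54 and 98 RNA counts, and tctatacaatttgtcg had 22 DNA counts and 0, 0 and 1 RNA counts. In chr3:39448118-39448315 the lowest plasmid, ggatatttggtttttc, had 24 DNA counts and 32, 17 and 2 RNA counts. The highest there, attctagtgtgaaatc, had 74 DNA counts and 73, 58 and 79 RNA counts. This element had 10 barcodes, against 32 and 36 in the elements before it. The lowest of fewer barcodes tends to be less extreme, so no uniformity is read from it. In the last of the printed elements, chr3:139062778-139062975, the barcode tcttagtattataaac had 63 DNA counts and 44, 37 and 125 RNA counts, and tatgaaattgctctgc had 31 DNA counts and 0, 0 and 1. The high plasmid there also varied between electroporations.

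The 80 elements spanned a narrow band of output. Their mean scaled ratio over the 3 RNA libraries ranged from 4.45 to 10.6, with a median of 6.67. A mean of at least 5 was found for 74 of them, at least 6 for 53, at least 8 for 23 and at least 10 for 4. All 80 were above the centre in edgeR's quasi-likelihood test of RNA against plasmid DNA at a Benjamini-Hochberg adjusted p under 0.05, where 8.88% of all 3378 elements and 14.0% of the 1463 with at least 8 barcodes were called. The rule used this contrast, so nothing is read from the count. The log2 ratios of that fit ranged from 2.02 to 3.27, and the SEs derived from its F statistic from 0.23 to 0.65. When barcodes with 1 to 4 RNA counts were treated as having none, 63 of the 80 passed. Scaled by library totals alone, which put the middle of the library at 0.547 in place of 1, the 80 had a median of 3.65 and 76 passed, and over all elements the calls went from 300 above and 0 below to 169 above and 50 below.

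The strongest element was chr20:5093697-5093894, with 32 counted barcodes and 837 DNA counts. It gave 901, 808 and 1117 RNA counts and scaled ratios of 10.2, 9.34 and 12.3 in replicates 1, 2 and 3, a mean of 10.6 ± 1.56 (SD, n = 3). Replicate 3 was its highest library. Next came chr11:118938423-118938620, with 36 barcodes, 1007 DNA counts and 1107, 1062 and 1083 RNA counts. Its scaled ratios of 10.4, 10.2 and 9.95 were among the most even of all 80, at 10.2 ± 0.212, and its log2 ratio of 3.21 ± 0.26 (SE) had the lowest adjusted p of the 80 (2.53e-17, edgeR quasi-likelihood).

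The 2 following elements passed a mean of 10 on fewer plasmids. The element chr3:39448118-39448315 had 10 barcodes and scaled ratios of 11.2, 9.48 and 9.78 (10.1 ± 0.900, SD, n = 3). It was counted on 10 of the 11 barcodes paired with it. With 12 barcodes, chr17:27046928-27047125 gave 9.61, 7.88 and 12.7, with replicate 2 its lowest library and replicate 3 its highest.

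Among the remaining members of the 10 highest, chr17:43138593-43138790 and chr20:62289585-62289782 were the most even. The former had scaled ratios of 9.70, 10.2 and 9.17 from 18 barcodes. The latter had 8.89, 8.75 and 9.22 from 19. A different kind of profile was seen at chr19:37808737-37808934, which had only 8 barcodes and 182 DNA counts: it was at 6.53 in replicate 1 and at 11.7 and 10.8 in replicates 2 and 3. Of its 8 barcodes, 1 had 5 or more counts in all 3 libraries, and yet every barcode reached that level in at least 1 library. The element chr3:50126271-50126468 had 7.26, 8.97 and 10.9 from 12 barcodes, and 30.4% of its RNA came from 1 of them. An element on chromosome 8 at chr8:37962957-37963154 had 9.19, 9.35 and 8.30 from 20 barcodes, and chr11:32605288-32605485 had 8.11, 6.77 and 11.6 from 15. Replicate 3 was the highest library for 5 of these 10 elements and the others peaked in replicate 1 or 2.

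The upper limit of the group falls within a continuum. The lowest mean among the 12 elements left out was 11.0, and 5 of the 80 exceeded that value in at least 1 library. The scaled ratios of 19 elements reached into the range of the strongest element over the 3 libraries. When the 80 were put in order of their mean, each of the 79 steps between neighbours in the order was smaller than the larger SD of the pair, and the largest step was 0.628. Steps between this many sorted means are small largely by construction, so this is a description. The order separates the top of the group from the bottom and does not separate elements that are next to each other.

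At the lower end, chr3:169491088-169491285 had the lowest mean of the 80, with 13 barcodes and scaled ratios of 4.79, 4.24 and 4.32 (4.45 ± 0.294, SD, n = 3). In chr11:85358939-85359136 the ratios were 4.63, 4.13 and 5.30, from 83 barcodes and 2541 DNA counts, the largest number of both. The lowest level in the group was thus measured both on few and on many plasmids. The smallest spread relative to the mean of all 80 was at chr17:7155192-7155389, whose ratios were 4.67, 4.66 and 4.82 (4.72 ± 0.0908) from 10 barcodes. That spread, 1.92% of the mean, was under the 8.11% that counting of its RNA reads alone would give. The others among the 6 lowest means were chr8:22526519-22526716 at 4.85 ± 0.663, chr3:14220243-14220440 at 4.94 ± 0.314 and chr17:57784930-57785127 at 4.99 ± 0.299. The ranges of 23 elements reached into that of the lowest.

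The threshold of 4 also cut through a continuum. Just inside it were chr17:28804350-28804547, with 6.13, 4.06 and 6.19, and chr1:94344632-94344829, with 4.09, 7.09 and 4.81. Just outside were chr4:119606463-119606660, with 3.98 in replicate 1 and a mean of 4.47 ± 0.543, and chr18:13726584-13726781, with a mean of 5.48 ± 1.57 and replicate 3 under 4. Further elements just outside had means of 6.16 ± 2.06 (chr11:62413978-62414175), 4.91 ± 0.981 (chr2:113341949-113342146) and 6.10 ± 1.95 (chr5:34915717-34915914). All 5 had a mean over 4 and missed the rule in 1 library only. Among elements with at least 8 barcodes, 34 passed 4 in 2 libraries and 74 in 1. A further 105 elements passed 4 in all 3 libraries on fewer than 8 barcodes and are not part of the group.

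The measured spread between electroporations covered an order of magnitude. Each value rests on only 3 libraries, and whether elements differ in repeatability was not tested. The coefficient of variation of the scaled ratio over the 3 libraries ranged from 1.92 to 37.6%, with a median of 15.0%. It was under 10% for 23 elements and over 25% for 12. Counting error of the RNA reads alone would give a median of 5.71%, and 71 of the 80 exceeded their own counting error. Among those under it were chr11:118938423-118938620 (2.09 against 3.04%), chr20:62289585-62289782 (2.64 against 4.57%) and chr2:113299936-113300133 (2.41 against 5.85%). Evenness closer than counting error is not read as a trait of these elements.

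The elements that varied most were carried by few plasmids. In chr11:71823650-71823847 the scaled ratios were 9.23, 4.65 and 10.4 from 13 barcodes, and in chr3:142720347-142720544 they were 10.3, 4.77 and 7.00 from 8 barcodes. Both were lowest in replicate 2. The same library was lowest for chr1:93297504-93297701, at 7.37, 4.28 and 8.59 from 9 barcodes, for chr22:24951848-24952045, at 4.94, 4.17 and 7.64 from 13, and for chr4:17616180-17616377, at 6.84, 5.63 and 10.4 from 11. At the other extreme, chr2:113299936-113300133 was at 6.30, 6.13 and 6.43 from 17 barcodes and chr6:33168568-33168765 at 8.60, 8.03 and 8.07 from 46. Over all 80, replicate 2 was the lowest library for 36 elements, replicate 1 for 26 and replicate 3 for 18. Replicate 3 was the highest for 37, replicate 1 for 25 and replicate 2 for 18.

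The median coefficient of variation was 18.5% for the 12 elements with 8 or 9 barcodes and 20.5% for the 21 with 10 to 14. It was 13.3% for the 20 with 15 to 19, 11.7% for the 9 with 20 to 29 and 11.7% for the 18 with 30 to 83. The spread was thus larger below 15 barcodes than above. The level did not follow the number of plasmids in the same way, since the median of the mean scaled ratio in these classes was 6.99, 6.06, 6.27, 8.01 and 6.95. Across the 80 elements the scaled ratios of the 3 pairs of libraries had a Pearson's r of 0.457 (replicates 1 and 2), 0.596 (1 and 3) and 0.601 (2 and 3). These correlations are over a range narrowed by the rule and share 1 DNA library, and they are given as a description.

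The output of these elements was carried by many plasmids. RNA counts of their barcodes were divided at a gap: 102, 118 and 101 barcodes had a count of 4 in replicates 1, 2 and 3, and 3, 2 and 2 had a count of 5. Counts of 0 to 4 are called the low range and counts of 5 or more the high range. No source used here explains the gap, and every share and level below rests on this division. Of the 1671 barcodes of the 80 elements, 65.4, 66.2 and 68.7% were in the high range in replicates 1, 2 and 3. In the other 1371 elements with at least 8 barcodes the shares were 19.7, 18.9 and 20.1%, and in the 12 strongest they were 92.3, 89.0 and 90.8%. The mean over libraries was 66.8% ± 1.72, 19.6% ± 0.641 and 90.7% ± 1.66 (SD, n = 3). No RNA was seen in a library for 8.28% ± 1.86 of the barcodes of the 80 elements and for 36.9% ± 3.03 of those of the other elements. Barcodes without RNA in all 3 libraries are absent from the count table, so all these shares leave them out. The counts behind these shares were also used by the rule, so the contrast is a description.

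Within the high range the barcodes of the 80 elements also gave more RNA per plasmid. Their summed RNA counts over DNA counts were 0.976, 0.924 and 1.00 in the 3 libraries, against 0.574, 0.521 and 0.551 in the other elements and 1.72, 1.61 and 1.81 in the 12 strongest. The 80 elements thus differed from the others by 3.41 times in the share of high barcodes and by 1.76 times in the level of those barcodes. From the 80 to the 12 strongest, the share rose by a factor of 1.36 and the level by a factor of 1.77. The share cannot pass 100%, and the level leaves out barcodes under 5 counts, so the sizes of these factors are not to be weighed against each other.

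The same components could be followed inside the group. In the upper 27 of the 80 elements, with means from 7.61 to 10.6, the median share of high barcodes was 75.6% and the median RNA/DNA of those barcodes was 1.11. In the lower 27, with means from 4.45 to 5.97, they were 59.3% and 0.810. The 26 between had 67.2% and 0.973. Over the 80 elements the mean scaled ratio had a Pearson's r of 0.756 with the share and 0.773 with the level, while the share and the level had an r of 0.254 with each other. All are computed from the same counts and are descriptions. The extremes did not always go together: chr3:169491088-169491285, the lowest of the 80, had 46.2% of its barcodes in the high range but an RNA/DNA of 1.09 in them, close to that of the upper 27.

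Plasmids kept part of their standing from library to library. Of the 1671 barcodes, 697 (41.7%) were in the high range in all 3 libraries, 450 in 2, 356 in 1 and 168 (10.1%) in none. In the other elements 3.35% were high in all 3 and 57.5% in none. A barcode of the 80 elements that was high in replicate 1 was high in replicate 2 in 75.6% of 1093 cases, against 48.4% of the 578 that were not high in replicate 1. For replicates 1 and 3 the shares were 78.1 and 50.9%, and for replicates 2 and 3 they were 77.8 and 50.8%. In the other elements the shares for these 3 pairs were 31.9 against 15.7%, 34.3 against 16.7% and 34.9 against 16.7%. All these shares pool barcodes of elements that differ in output. They therefore hold differences between elements as well as between plasmids, and no standing of plasmids is read from them alone. After the mean of each element was removed, log2 RNA/DNA of single barcodes (with a pseudocount of 0.5 counts) had an r of 0.347 to 0.393 between libraries in the 80 elements and 0.166 to 0.200 in the others. Log2 RNA counts alone, without the shared DNA value, had 0.378 to 0.434 and 0.0980 to 0.137. The plasmid input moved with this standing: the median DNA count was 29 for barcodes high in all 3 libraries, 22 for those high in 2, 20 in 1 and 18 in none. Its part in the result was not tested.

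The share of barcodes in the high range varied between elements. The cut at 5 counts is not scaled to an element's output or plasmid input. Whether elements differ in how evenly their plasmids worked was not tested. In chr3:39448118-39448315, 7 of 10 barcodes were high in all 3 libraries and none was low in all 3. In chr8:37962957-37963154 these numbers were 14 and 1 of 20. By contrast, 6 of the 16 barcodes of chr1:52082706-52082903 stayed in the low range throughout, the largest share of the 80 (37.5%). On the scale of the median over barcodes it had 3.78 times the centre, against 5.42 ± 0.934 (SD, n = 3) from summed counts. It was the only one of the 80 whose median over barcodes was under 4, and it is named after its values were seen. At least 50% of barcodes were high in every library in 63 of the 80 elements and in 12 of the 1371 others, and 17 of the 80 had no barcode that was low throughout.

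The largest contribution of a single plasmid was moderate. The barcode with the most RNA held between 4.41 and 38.0% of an element's RNA over the 3 libraries, with a median of 17.3%. It held over 30% in 10 elements and under 10% in 15. The element most dependent on a single plasmid was chr16:10837604-10837801, with 9 barcodes and scaled ratios of 7.92, 4.34 and 7.21. Its barcode cagtataccggatatt, printed above, had 47 DNA counts and 73, 73 and 99 RNA counts. Without it the mean fell from 6.49 to 4.73, and the lowest library was at 2.45.

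Removal of the leading plasmid did not lower every element. In chr1:70671303-70671500 the barcode tcttaaaaagttgtgt held 34.8% of the RNA but also 134 of the 334 DNA counts, and without it the mean was 5.81 in place of 5.33. In chr3:139062778-139062975 the mean went from 7.16 to 6.21, in chr2:113299936-113300133 from 6.29 to 5.41 and in chr11:71823650-71823847 from 8.10 to 5.97. With the centre of the library kept, the median fall over the 80 was 6.29% and the largest was 27.1%. Over 4 in all 3 libraries without their leading barcode were 69 of the 80.

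The leading barcode held the smallest shares of the RNA in elements with many plasmids. Such a share tends to fall as barcodes are added, so it does not measure how evenly the plasmids worked. In chr11:85358939-85359136 the leading barcode held 4.41% of the RNA, and 23 of 83 barcodes were high in all 3 libraries. In chr17:60501192-60501389, with 61 barcodes and a mean of 5.57 ± 0.900, it held 5.09%. In chr21:27107232-27107429, also with 61 barcodes, it held 5.34% at a mean of 5.04 ± 0.712. Higher output on many plasmids was found at chr11:65337870-65338067, with 7.12, 6.89 and 7.72 from 36 barcodes, and chr9:33264940-33265137, with 5.96, 6.48 and 5.99 from 44. The element chr3:150264483-150264680 had 5.37, 6.13 and 5.06 from 52. All 6 had a coefficient of variation under 17%, and without the leading barcode their means stayed between 4.65 and 7.15. In the order given, 27.7, 32.8, 26.2, 52.8, 50 and 28.8% of their barcodes were high in all 3 libraries. The median over the 80 was 44.4%.

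More of the barcodes paired with these elements reached the count table. Of 2700 paired barcodes, 1671 (61.9%) were counted, against 42.2% in the other elements with at least 8 barcodes and 64.8% in the 12 strongest. Every barcode in the deposited table has at least 10 DNA counts and at least 1 RNA count. No source used here states the filter itself, and the share may depend on output. The median DNA count per barcode was 23 in the 80 elements and 26 in the others, and a lower DNA count raises the ratio. Across the 80, the mean scaled ratio had a Pearson's r of 0.00564 with the median DNA count per barcode, as a description. The GC content of the barcodes was 41.9% in the 80 elements and 42.1% in the others.

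The 80 elements lay on 21 chromosomes, with 9 each on chromosomes 3 and 17, 8 on chromosome 11 and 7 on chromosome 1. As a share of the elements with at least 8 barcodes this was 10.1% of 89 on chromosome 3, 13.6% of 66 on chromosome 17, 8.25% of 97 on chromosome 11 and 4.12% of 170 on chromosome 1. On fewer such elements, the shares were 15.4% of 13 on chromosome 21, 11.1% of 27 on chromosome 22 and 10.6% of 47 on chromosome 16. Over all chromosomes it was 80 of 1463. The low end was chromosome 7, with 1 of 82, and chromosome 15, with 0 of 41. Chromosome 19, with 92 such elements, held 4. The closest of the 80 to each other lay on chromosome 11, where 4 of them, starting at 64889672, 65186588, 65337870 and 65383170, lay within 493696 bp. Their means were 5.60, 8.44, 7.25 and 7.74. The other 9 elements with at least 8 barcodes in that stretch had a median of 0.838 and a maximum of 1.80, so strong and ordinary elements were interspersed. The stretch was cut at the start of its first strong element. This leaves out the element starting at 64889527, which overlaps it and had a mean of 3.66 ± 1.41 from 30 barcodes. The next closest pair, on chromosome 17, started 360593 bp apart. The stretch on chromosome 11 was singled out after the values were seen.

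Most of the strong elements stood alone in the library. No other element paired with a barcode started within 1000 bp of 65 of the 80 (81.2%), against 980 of the 1371 others (71.5%) and 8 of the 12 strongest. An overlap with another element was found for 10 of the 80 (12.5%) and for 17.6% of the others. Position was not used by the rule, and the difference between these shares was not tested. The 10 overlapping elements had 11 overlapping neighbours, of which 8 were counted. None of the 8 was over 4 in all 3 libraries. Their median scaled ratio was 1.84, against 0.838 over all 603 counted elements that overlap another. Since the 80 were chosen as high, a neighbour is lower in most cases by construction, and the pairs are descriptions.

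At chr1:32687925-32688122 the strong element had neighbours on both sides. It gave scaled ratios of 8.86, 6.52 and 8.85 from 34 barcodes. The neighbour starting at 32687846, which shares 119 bp, gave 5.74, 3.90 and 10.9 from 6 barcodes and exceeded it in replicate 3. The neighbour starting at 32688050, which shares 73 bp, gave 0.0767, 0.0786 and 0.376 from 6 barcodes and 246 DNA counts, with 2, 2 and 10 RNA counts. All of the latter's barcodes stayed in the low range. In edgeR's quasi-likelihood test the adjusted p was 0.00104 for the left neighbour and 0.580 for the right one. The right window was therefore not told apart from the centre of the library. Both neighbours had fewer than the 8 barcodes asked of the group, so no boundary of output is read from these windows.

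Lower neighbours were also seen upstream by coordinate. The element chr14:78174344-78174541 was at 8.16, 7.69 and 6.52 from 15 barcodes, and the window starting 87 bp before it at 1.14, 1.23 and 1.73 from 9. In chr21:27107232-27107429 the ratios were 5.83, 4.83 and 4.45, and the window 112 bp before it had 0.248, 0.961 and 1.65 from 11 barcodes. The reverse arrangement was found at chr1:28832407-28832604, with 4.97, 6.48 and 7.27 from 16 barcodes, where the window 70 bp after it had 0.0916, 0.798 and 1.26 from 10. The share of barcodes in the high range in all 3 libraries was 11.1% in the first of these neighbours and 0% in the other 2.

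Other counted neighbours that overlap had mean scaled ratios from 2.32 to 3.66. The window 89 bp before chr5:153418446-153418643 had 2.66, 3.58 and 3.12 from 20 barcodes, against 7.04, 6.36 and 6.45 from 8. The window 145 bp before chr11:64889672-64889869 had 3.29, 2.47 and 5.21 from 30 barcodes, against 5.69, 6.16 and 4.96 from 9, and was the higher of the pair in replicate 3. The window 135 bp before chr10:103347973-103348170 was steady at 2.25, 2.40 and 2.30 from 10 barcodes, against 4.55, 5.24 and 6.07 from 18. In edgeR's quasi-likelihood test the adjusted p of these windows was 0.00729, 0.00116 and 0.636, in the order given. The window on chromosome 10 was therefore not told apart from the centre of the library. For chr14:75179675-75179872 (5.94 ± 1.39), chr3:128369638-128369835 (5.28 ± 0.457) and chr1:70671303-70671500 (5.33 ± 1.03) the overlapping neighbour was paired with 4, 2 and 1 barcodes and was not in the count table.

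Neighbours that did not overlap were lower in all 3 libraries where they were counted. Around chr11:65186588-65186785, at 7.68, 8.40 and 9.24 from 25 barcodes, the element starting 497 bp before had 2.56, 1.76 and 0.306 from 9 barcodes and the element starting 972 bp after had 0.801, 0.590 and 0.785 from 13. The element starting 238 bp before chr17:57784930-57785127 had 0.795, 2.34 and 1.35 from 10 barcodes, against 5.02, 4.68 and 5.27 from 56. High output in these places was measured in a single window among those counted.

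The 41 elements not named by rule were spread through the middle of the order, with means from 5.08 to 8.78 and a median of 6.68. They had 8 to 45 barcodes, 210 to 1461 DNA counts and coefficients of variation from 4.34 to 31.0%. Their leading barcode held 7.01 to 31.4% of the RNA. A median of 45.2% of their barcodes was in the high range in all 3 libraries, close to the 44.4% over all 80 elements. Their log2 ratios in edgeR's quasi-likelihood fit lay between 2.21 and 3.00.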

How the data were processed

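Per the labels' protocols, barcodes were paired with elements by sequencing amplified fragments that span both. The authors deposited raw counts per barcode in plasmid DNA and in 3 RNA replicates, in a table described as filtered, with the filter, the aligner and the counting tool not given in the sources used here. Columns were matched to samples by title. Coordinates are hg19, per the submitters' processing notes, with starts counted from 1. The deposited pairing table was used for paired barcodes and neighbours.

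Counts were summed per element and scaled as described in the report. The test was edgeR 4.0.16 (R 4.3.3), RNA against plasmid DNA, by quasi-likelihood after TMM normalization, with Benjamini-Hochberg adjustment over 3378 elements. It was run on simulated counts with known fold changes, with counting error alone in the DNA library and a small part of the elements raised. That setting is simpler than these data and does not cover the choice of centre, so nothing is read from it here. There is 1 DNA library, so SDs leave out its error. The edgeR p-values rest on a spread between electroporations that is pooled in part over elements, and do not measure an element's own spread. For example, chr17:7155192-7155389 and chr1:93297504-93297701 had SEs of 0.515 and 0.523 at coefficients of variation of 1.92 and 32.9%. Named elements are the 10 highest and 6 lowest means, the 6 with the most barcodes, the 5 at each end of the coefficient of variation and of the leading barcode's share, and all that overlap another, plus 5 just outside the rule. The elements, lists and tests were chosen with earlier results of these data known. Tables were built with Python 3.11.15 and pandas 2.3.3. Alternatives used DESeq2 1.42.0 and limma 3.58.1. Sequence motifs and gene groups of the elements were not analysed here.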

Additional observations from a re-analysis of the deposited data

How the results depend on the processing

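The number of elements that meet the rule beyond the 12 highest, 80, depends on the centre and the limits. It was 14 with library totals in place of the median, 131 with at least 5 barcodes, 130 with a threshold of 3, 47 with a threshold of 5, and 123 (67 of them among the 80) without the leading barcode of every element, a setting that also lowers the centre. With the other settings it stayed within 1.5 times of 80, at 69 with TMM, 54 with at least 12 barcodes, 72 with barcode RNA counts under 5 taken as 0 and the centre kept, and 80 (65 shared) with the median over barcodes. Without each RNA replicate in turn, a looser rule that cannot lower the number, it was 86 to 98. The median scaled ratio of 6.67 was 6.08 with TMM, 3.65 with library totals, 5.99 with the centre over elements with at least 8 barcodes, 10.4 with the median over barcodes and 9.83 without the leading barcodes. It was 6.48 to 6.89 without each RNA replicate. Of the 80, edgeR called 76 with library totals and 63 with RNA counts under 5 taken as 0. It called 77 to 80 without each RNA replicate, 77 of them without replicate 2. DESeq2, limma-voom, DESeq2's size factors, the test over elements with at least 8 barcodes and that without leading barcodes each called 80. Over all 3378 elements the count above the centre, 300 with 0 below, was 169 with 50 below for library totals, 115 with 7 below for RNA counts under 5 taken as 0, 511 with 136 below for limma-voom and 193 with 0 below without replicate 2. None of the 39 named elements fell under the centre in any setting, and 38 had a mean over 4 without their leading barcode, the exception being chr3:169491088-169491285 at 3.53. The rule fixed the former in advance for the settings without an RNA replicate. All 39 were chosen as high in the same counts, so these numbers are descriptions. With library totals 15 of the 39 were over 4. No paired analysis was possible because the single DNA library has no counterpart for each RNA replicate. Counting error of the RNA reads alone is 2.83 to 9.74% of a scaled ratio.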
